A study of Mus musculus with 8 samples.

Results

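Kit-positive, granule-poor cells of spleen and bone marrow were examined: 778 of the 20012 cells of the series, made up of 523 of 6105 spleen cells and 255 of 5682 marrow cells. A cell was a member if it held at least 1 unique molecular identifier (UMI, a counted RNA molecule) of Kit, less than 0.5% of its UMIs from Mpo, Elane, Prtn3 and Ctsg, less than 0.2% from Camp, Ngp and Ltf, and less than 1% from S100a8 and S100a9. In addition it held no Klf1, at most 1 UMI of Car1 and no Cd79a. Members were thus chosen by the levels of these 13 transcripts, which are no result. The cells set against them were the 381 marrow cells in which Mpo, Elane, Prtn3 and Ctsg together reached 0.5% or more, called granule-high cells below. Of those, 208 (54.6%) held a Kit UMI.

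The cells came from female C57BL6/J mice with a MOPC tumor (a mouse oropharyngeal carcinoma line) under the skin of the flank. All groups used here carried the tumor, and the labels give each tissue as a mix of wild-type mice and a gene knockout model named Genotype_02. No label ties a cell to its genotype or gives an age, and all libraries are labelled as 1 batch. Sorting took live cells of a pair of gates, one Gr1-positive and free of NK1.1, Fc epsilon receptor, Ter119, B220 and CD3, the other Gr1-negative and cKit-positive, so cKit and Gr1 helped to decide which cells were measured at all. Marrow was flushed from the femur, while spleen was minced and pressed through a filter. With 1 library per tissue, an effect of the library cannot be told apart from one of the tissue.

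Haematopoietic stem cells and multipotent progenitors give rise to all blood lineages and carry the stem cell factor receptor encoded by Kit. As they mature they first express genes of several lineages at low level and then settle on one, with GATA factors favoured on the way to megakaryocytes, erythrocytes and mast cells and Flt3 on the way to lymphoid and dendritic cells. Granule proteases such as Mpo and Elane mark the neutrophil and monocyte branch. In mice the spleen can hold such progenitors beside the marrow.

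Members had a median of 14677 UMIs per cell in spleen and 15271 in marrow, and granule-high cells had 29336. A single Kit UMI carried the membership of 165 spleen members (31.5%) and 78 marrow members (30.6%). Hashtags, antibodies that mark the cells of a mouse before pooling, split each group into 8 sums, with 13 to 163 spleen members, 17 to 64 marrow members and 14 to 66 granule-high cells per sum. The sums held 176742 to 2578174 UMIs in spleen members, 287355 to 1137620 in marrow members and 361254 to 1883240 in granule-high cells. Members made up 2.48% to 12.8% of the spleen cells of a hashtag (median 7.06%) and 3.06% to 7.42% of its marrow cells (median 4.84%). Because cell numbers were evened out before the sort, these shares are not frequencies in the organ. Of 31 barcode sequences found in more than 1 library, 1 belonged to a member.

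The set was proposed as early multipotent progenitors, with Kit, Cd34, Meis1, Gata2 and Sox4 as their markers. Marrow members carried them and spleen members mostly did not. When each cell was thinned to 3000 UMIs, at least 2 of Cd34, Meis1, Gata2 and Sox4 were detected in 3.30% of 515 spleen members (95% Clopper-Pearson interval 1.93 to 5.23), in 55.5% of 247 marrow members (49.0 to 61.8) and in 8.15% of 368 granule-high cells. Without thinning the shares were 10.7%, 88.6% and 47.8% in the same order. These and all intervals on shares of cells cover counting error only.

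What most spleen members carried instead was the RNA of MHC class II, the complex with which antigen-presenting cells show peptides to helper T cells. Cd74, H2-Aa, H2-Ab1 and H2-Eb1 together reached 0.2% of the UMIs in 485 of 523 spleen members (92.7%) and in 10 of 255 marrow members (3.92%). Per hashtag that share ran from 69.2% to 96.3% of spleen members (median 90.2%) and from 0 to 14.3% of marrow members. A typical spleen member devoted 2.79% of its UMIs to these 4 transcripts, against a median of 0 in marrow members. The spleen cells of the set are therefore called Kit-positive, granule-poor spleen cells or spleen members below, and the progenitor label is not used for them.

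**Figure D1:**
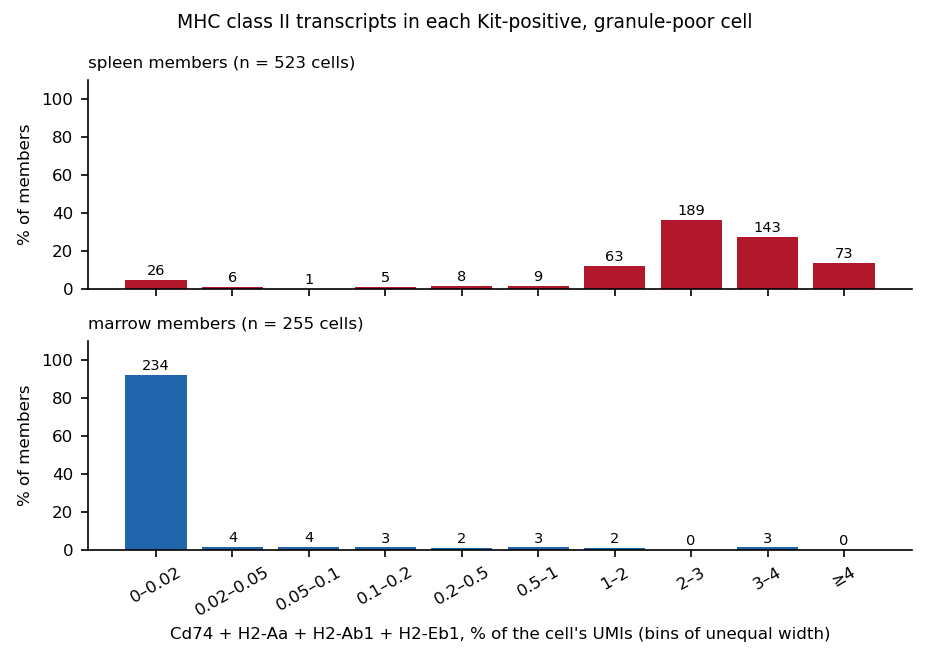
Share of members (vertical axis, percent of the members of a tissue) by the share of a cell's UMIs from Cd74, H2-Aa, H2-Ab1 and H2-Eb1 (horizontal axis, bins of unequal width), with the number of cells over each bar. 468 of 523 spleen members lie at 1% or more, and 234 of 255 marrow members lie under 0.02%.

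Kit RNA was found in most spleen cells with high MHC class II RNA. Of 808 spleen cells with at least 1% MHC class II RNA, 63.2% held Kit at a median of 13522.5 UMIs per cell. In spleen cells with at least 5% of their UMIs from S100a8 and S100a9, neutrophil genes, 2.12% of 3060 held Kit at a median of 3073 UMIs. In the same kind of marrow cell 9.67% of 3836 held Kit at a median of 6422.5 UMIs.

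Marrow members were first described against granule-high cells of the same library. Both groups were split by RNA of the same cells, so gene differences between them are a description without a test. A gene was counted as different where all 8 hashtags moved 1 way, the groups did not overlap and the ratio of mean CPM (a gene's UMIs after all sums were scaled to one total) was at least 2. Of 9078 genes, 417 (4.59%) were higher and 359 (3.95%) lower in marrow members, and the median log2 ratio of all genes was 0.12. With every cell thinned to 3000 UMIs, 75 were higher and 141 lower among the 2777 genes then measured. Fewer cells with a transcript and fewer molecules per cell cannot be told apart in such sums.

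Meis1, a homeobox factor that stem cells need, ran from 264 to 529 CPM over the 8 sums of marrow members (median 347), against 11.1 to 49.7 CPM (median 22.2) in granule-high cells. Gata2, a zinc finger factor of stem and mast cell programmes, had 59.3 to 121 CPM (median 78.8) in marrow members and 0 to 23.8 CPM (median 5.21) in granule-high cells. Sox4, an HMG-box factor of early progenitors, had 179 to 341 CPM (median 262) in marrow members and 26.9 to 69.0 CPM (median 53.0) in granule-high cells. The lowest marrow member sum lay above the highest granule-high sum for each of these. Cd34, a surface sialomucin of progenitors, stood closer, with 127 to 278 CPM (median 220) in marrow members and 49.5 to 90.6 CPM (median 72.0) in granule-high cells. The log2 ratios were 3.66 for Meis1, 3.35 for Gata2, 2.40 for Sox4 and 1.52 for Cd34. Members had to hold Kit RNA, while granule-high cells did not. When only granule-high cells with a Kit UMI were used, Sox4 had a ratio of 1.69 and Cd34 one of 0.94, under the 2-fold criterion.

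Of 11 measured stem cell genes, 10 were higher in marrow members and none lower, with a median log2 ratio of 3.66 beside 0.12 for all genes. Hlf, a leucine zipper factor tied to stem cell identity, had 110 to 247 CPM (median 162) in marrow members and 6.46 to 16.8 CPM (median 7.95) in granule-high cells. Mecom, which encodes EVI1, had 116 to 327 CPM (median 221) in marrow members and 0 to 22.8 CPM (median 13.5) in granule-high cells. Among genes of multipotent progenitors, 13 of 21 were higher and none lower. They included the adhesion receptor Adgrg1 (log2 ratio 2.94 ± 0.78, SD over 8 hashtag pairs) and the blood factor Tal1 (2.73 ± 0.78). With only the granule-high cells that held Kit, 9 of 10 stem cell genes were higher (median 2.51). Of 21 multipotent genes 9 were then higher, with a median of 0.94 in place of 1.61, and none of either list was lower. Hlf and Adgrg1 had ratios of 3.15 and 2.10 there.

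**Figure D2:**
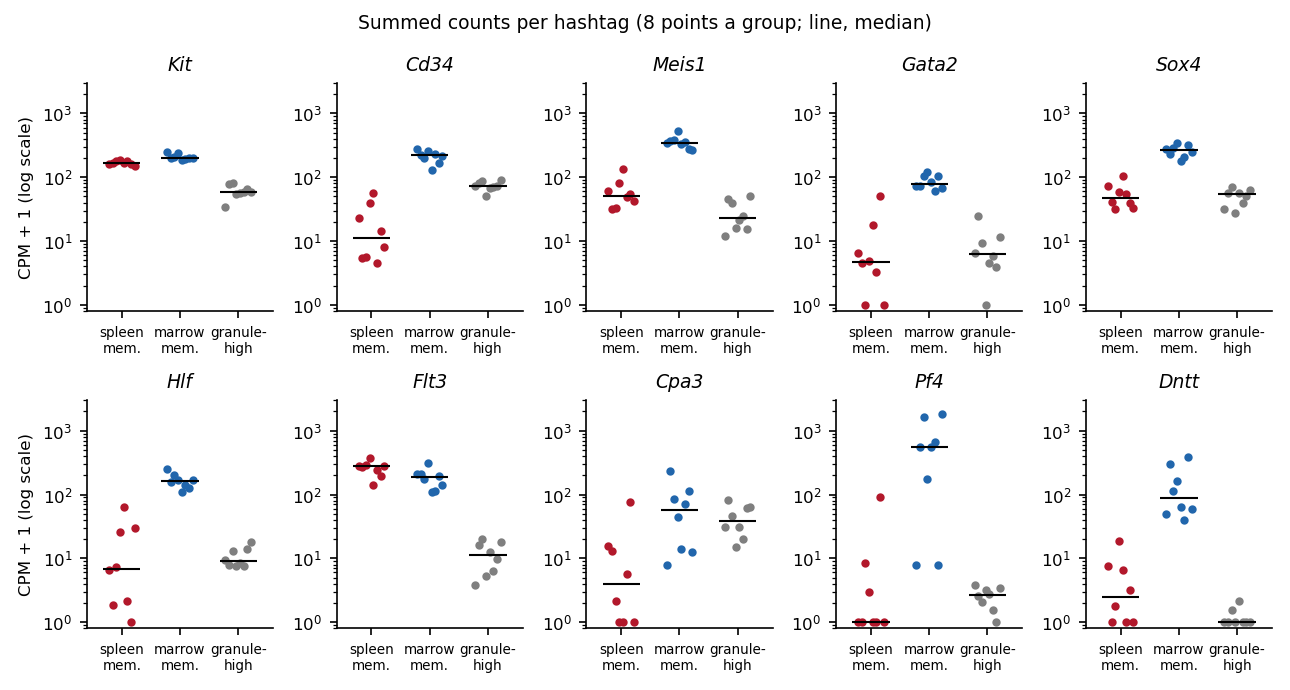
Summed counts of 10 genes (vertical axis, CPM plus 1 on a log scale) in spleen members, marrow members and granule-high marrow cells, with 1 point for each of 8 hashtags and a line at the median. Cd34, Meis1, Gata2, Sox4 and Hlf are highest in all 8 marrow member sums, while Flt3 is high in both sets of members and Pf4 in marrow members runs from 6.85 to 1821 CPM.

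Genes of 3 further lineages were also higher in marrow members. Of 15 lymphoid-primed genes 8 were higher, of 14 megakaryocyte genes 7, and of 8 early erythroid genes 4, with none lower in these lists and medians of 1.69, 3.21 and 3.47. Flt3, a cytokine receptor of lymphoid and dendritic precursors, had 110 to 312 CPM (median 185) in marrow members and 2.77 to 19.1 CPM (median 10.2) in granule-high cells. Dntt, the terminal transferase that adds bases to antigen receptor joints, had 39.5 to 383 CPM (median 86.7) in marrow members, and in granule-high cells it was at 0 in most sums and 1.17 CPM at most. Satb1, a chromatin organiser of lymphoid cells, and Wfdc17 were higher by 2.24 ± 0.62 and 3.48 ± 1.49 on the log2 scale.

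Pf4, a chemokine of megakaryocytes and platelets, was uneven between hashtags. It ran from 6.85 to 1821 CPM (median 548) in marrow members and stayed at 2.77 CPM or less in granule-high cells (log2 ratio 8.06 ± 3.08). The thrombin receptor gene F2r and Rab27b, a regulator of platelet granules, were higher by 5.11 ± 0.93 and 5.13 ± 1.49. On the erythroid side Car2, carbonic anhydrase 2, Zfpm1, the GATA partner FOG1, and Gata1 were higher by 4.55 ± 0.94, 4.37 ± 1.53 and 3.49 ± 1.54. Cpa3, a mast cell protease, overlapped between the groups, with 6.96 to 236 CPM (median 56.3) in marrow members and 14.0 to 82.3 CPM (median 37.5) in granule-high cells. Of 10 mast cell and basophil genes 1 was higher and 1 lower.

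The granulocyte-monocyte list ran the other way, with 15 of 22 genes lower and none higher in marrow members (median -1.97). Ly6c2, which encodes a form of the Ly6C antigen, had 8.67 to 240 CPM (median 36.7) in marrow members and 1592 to 2102 CPM (median 1835) in granule-high cells. Fcnb, a ficolin of young myeloid cells, lay 6.60 ± 1.09 lower on the log2 scale, and the Fc receptor gene Fcgr3 5.04 ± 1.55 lower. The coagulation factor gene F13a1 lay 4.25 ± 1.95 lower, Hp, haptoglobin, 4.32 ± 1.47 lower, and Cebpb, a factor of emergency granulopoiesis, 2.79 ± 0.59 lower.

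Cell division genes did not separate the groups by these criteria. None of 23 G2 and M phase genes and 1 of 22 S phase genes differed, which was Rrm2, a ribonucleotide reductase subunit (log2 ratio -1.48 ± 0.31). Ribosome biogenesis and MYC target genes gave 0 of 20, and Myc itself had a ratio of 0.64 ± 0.41. Of 18 glycolysis and hypoxia genes 5 were lower and 1 higher, among them Pgam1, a glycolytic mutase (-1.63 ± 0.25), Hk2, a hexokinase (-1.47 ± 0.54), and the glucose transporter gene Slc2a3 (2.06 ± 0.75). Of 15 cell cycle inhibitor and quiescence genes only 2 were higher and none lower, with a median log2 ratio of 0.38. They were Txnip, which restrains glucose uptake and is high in resting stem cells (2.18 ± 0.34), and Foxo3, a quiescence factor (1.30 ± 0.22). Fos of the same list had a ratio of -2.13 with overlapping groups.

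MHC class II genes also counted as higher in marrow members (4 of 7), but they rested on few cells. H2-Aa had 8.67 to 551 CPM (median 67.1) in marrow members and at most 2.92 CPM in granule-high cells. Without the 10 MHC class II-high cells, a choice made after seeing the data, 1 of 4 measured genes of that list remained different.

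Surface antibodies were not used by the rule and were tested. An exact paired permutation test over all 256 sign flips of the 8 hashtag pairs was applied to the log2 mean antibody UMIs per cell, two-sided, with Benjamini-Hochberg adjustment over the 18 antibodies. The smallest adjusted p reached was 0.0156, from the smallest raw p this design allows (0.0078125). Marrow members carried more cKit, CXCR4, CD64 and MHCII and less CD115, CD16/32, Ly6C, CD62L, CD44, CD49d, CD11a and CD106. The other 6 antibodies did not pass, namely CD11b, CD69, CD24, CD14, CCR2 and CXCR2. MHCII and CD11a no longer passed when any 1 of hashtags 1 to 6 was left out (exact adjusted p of 0.0703 to 0.0767). CD106 no longer passed without hashtag 1, 3, 4, 5, 6, 7 or 8 (0.0703 to 0.0938). Against granule-high cells with a Kit UMI, CD11a (-0.24, exact adjusted p = 0.519) and CD106 (-1.02, 0.156) did not pass either. CD64 counts were low and overlapped, with a median of 1.84 UMIs per cell in marrow members and 1.08 in granule-high cells. When medians of cells were compared, CD64 did not pass (0.56, exact adjusted p = 0.0865).

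Myeloid receptors fell most. CD115, the receptor for M-CSF, had 0.846 to 2.24 antibody UMIs per cell (median 1.03) in marrow members and 10.8 to 15.7 (median 14.2) in granule-high cells (log2 difference -3.51 ± 0.49, SD over pairs, exact adjusted p = 0.0156). CD16/32, the low-affinity Fc gamma receptors, had 4.38 to 17.1 UMIs (median 11.6) in marrow members and 63.3 to 88.9 (median 76.5) in granule-high cells (-2.81 ± 0.68, exact adjusted p = 0.0156). Ly6C had 17.6 to 49.5 UMIs (median 20.9) in marrow members and 99.4 to 183 (median 122) in granule-high cells (-2.42 ± 0.45, exact adjusted p = 0.0156). None of these overlapped between the groups, and antibodies to Gr1, the sort antigen, can bind Ly6C as well as Ly6G, so the gate stands beside the Ly6C value. CD62L, the lymph node homing selectin, was lower in all 8 pairs (-1.34 ± 0.28).

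The cKit antibody gave 48.1 to 76.3 UMIs per cell (median 54.4) in marrow members and 23.1 to 40.9 (median 29.6) in granule-high cells, a difference of 1.00 ± 0.34 (exact adjusted p = 0.0156). Every member had to hold Kit RNA, while granule-high cells did not. Against the granule-high cells with a Kit UMI the difference was 0.23 and did not pass the test (exact adjusted p = 0.156). CXCR4, the receptor that holds progenitors in the marrow, had 4.31 to 16.7 UMIs (median 10.2) in marrow members and 2.41 to 6.63 (median 3.79) in granule-high cells. It was higher in 8 of 8 pairs (1.33 ± 0.54, exact adjusted p = 0.0156), whereas Cxcr4 RNA had a log2 ratio of -0.77 ± 0.49 and overlapped. The RNA ratio depended on the cells set against the members. It was -0.21 against the granule-high cells with a Kit UMI. Against granule-high cells with at least 2% from Mpo, Elane, Prtn3 and Ctsg it was 0.19. Against the granule-high cells with a Kit UMI, CXCR4 differed by 0.88 (exact adjusted p = 0.0804), CD64 by 0.20 (0.6) and MHCII by 0.79 (0.394), so none of them passed there. MHCII antibody was higher in 7 of 8 pairs (1.27 ± 1.15, exact adjusted p = 0.0384). Without the 10 MHC class II-high cells it no longer passed (0.97, exact adjusted p = 0.162).

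Antibody depth differed between the groups, with 988 antibody UMIs per marrow member and 1779 per granule-high cell. Taken as a share of all antibody UMIs, 7 antibodies were higher and 4 lower. CD44, CD49d and CD11a then turned to differences of 0.08, 0.17 and 0.03 that did not pass the test. CD115, CD16/32, Ly6C and CD62L stayed lower and cKit, CXCR4, CD64 and MHCII higher. CD69, CD24 and CD14, which had not passed by the mean per cell, were higher as shares by 0.97, 0.93 and 0.81 (exact adjusted p of 0.0156, 0.0256 and 0.0156). The lower total of marrow members raises the share of any antibody with equal counts, so these rises do not show more of it per cell. Median counts in marrow members and granule-high cells were 0.580 and 0.406 UMIs per cell for CD69. They were 222 and 183 for CD24, and 1.43 and 1.42 for CD14. CD106, lower by its mean per cell (-0.81 ± 0.78, exact adjusted p = 0.0469), was higher by 1.14 when medians of cells were compared (exact adjusted p = 0.0128).

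**Figure D3:**
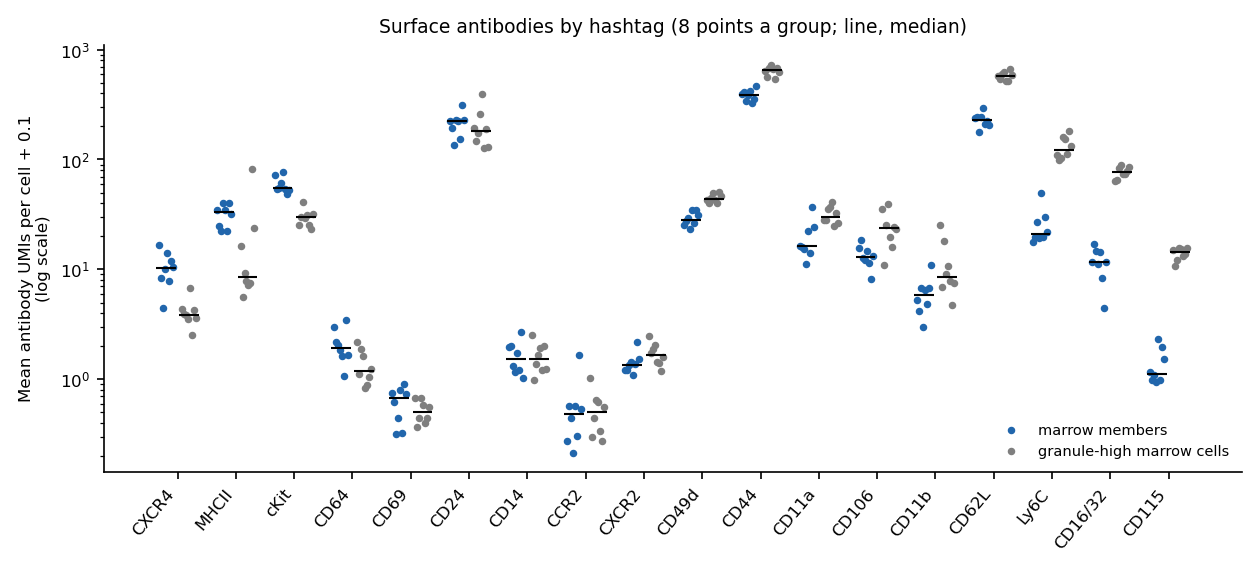
Mean antibody UMIs per cell plus 0.1 (vertical axis, log scale) for 18 surface antibodies in marrow members and granule-high marrow cells, with 1 point for each of 8 hashtags and a line at the median, ordered from the most positive to the most negative difference. CD115, CD16/32 and Ly6C do not overlap between the groups, and 1 granule-high sum stands at 82.3 UMIs of MHCII.

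Lineage genes were spread unevenly over the marrow members. At 3000 UMIs per cell, Meis1 was detected in 51.8% of 247 marrow members (95% Clopper-Pearson interval 45.4 to 58.2), Flt3 in 32.4% (26.6 to 38.6) and Gata2 in 21.5% (16.5 to 27.1). Pf4 was found in 14.6% (10.4 to 19.6) and Cpa3 in 8.50% (5.34 to 12.7). Marrow cells with at least 5% S100a8 and S100a9, thinned alike, gave 1.09% for Meis1, 0.425% for Flt3, 0.364% for Gata2, 0.456% for Pf4 and 0.243% for Cpa3. Unthinned, the members' shares were 86.7% for Meis1, 55.7% for Flt3, 52.2% for Gata2, 24.7% for Pf4 and 20% for Cpa3.

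Counted by list, at least 2 stem cell genes were detected in 89.9% of marrow members at 3000 UMIs, at least 2 lymphoid-primed genes in 83.8%, at least 2 megakaryocyte genes in 64.4% and at least 2 early erythroid genes in 53.8%. No other cells are set beside these shares, so they do not show that such detection is particular to marrow members.

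Pf4 and Cpa3 UMIs sat in few cells. A single marrow member held 890 of the 4010 Pf4 UMIs, and 23 cells with 10 or more held 3932. For Cpa3 the 10 highest cells held 65.9% of the UMIs, and the highest had 69. Meis1 was spread more evenly, with 18.5% of its UMIs in the 10 highest cells.

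Transcripts of the GATA side were found in a smaller share of marrow members with Flt3 than of those without. Gata2 was detected in 6.25% of the 80 marrow members with Flt3 and in 28.7% of the 167 without it, at equal depth. Pf4 was detected in 6.25% and 18.6% of the same cells, and Cpa3 in 2.50% and 11.4%. Meis1 showed no such split, with 52.5% in cells with Flt3 and 51.5% in cells without. Unthinned, Gata2 was found in 35.2% of cells with Flt3 and in 73.5% of cells without, and in 86.3% of cells with Cpa3 and 43.6% of cells without. These shares describe single cells of pooled mice and were not tested.

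Cells with Flt3 at equal depth also held more of other lymphoid-primed genes. Their summed lymphoid-primed list came to 3065 CPM, against 1508 CPM in marrow members without Flt3, with Flt3 itself left out of the sum. Dntt had 309 CPM with Flt3 and 26.1 CPM without, Il7r, the interleukin 7 receptor, 79 UMIs and 1 UMI, and Satb1 241 and 69.2 CPM. Notch1, the receptor that starts T cell fate, had 67.4 CPM with Flt3 and 13.7 CPM without. The megakaryocyte list was lower in cells with Flt3 (1059 CPM) than in those without (3328 CPM), as was the erythroid list (671 and 1312 CPM). Pf4 stayed in the megakaryocyte sums and was detected in 5 cells with Flt3 and 31 without. Most Pf4 UMIs lay in few cells, so the megakaryocyte difference can rest in part on those cells. Stem cell lists were close, at 3271 and 3342 CPM.

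The 36 marrow members with Pf4 held 5058 CPM of the megakaryocyte list, against 944 CPM in the 211 without, Pf4 itself left out of the sum. Vwf, von Willebrand factor, had 107 CPM with Pf4 and 2.85 CPM without, the platelet gene Cavin2 231 and 9.10 CPM, and Itga2b, the integrin CD41, 160 and 33.0 CPM. Their granulocyte-monocyte list stood at 1956 CPM, against 4706 CPM in cells without Pf4. Stem cell genes were again close, at 3498 and 3280 CPM. The CD62L antibody was low on the cells with Pf4, with a median of 18.5 UMIs per cell against 155 in those without, while CD106 (VCAM1) had a median of 16 against 8.

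The 21 marrow members with Cpa3 held 2812 CPM of the mast cell and basophil list, against 1156 CPM in the 226 without, Cpa3 itself left out of the sum. Ms4a2, a chain of the IgE receptor, had 70.7 CPM with Cpa3 and 10.5 CPM without, Hdc, which makes histamine, 63.1 and 4.34 CPM, and the basophil protease Mcpt8 45.4 and 2.30 CPM. Gata2 had 187 CPM with Cpa3 and 76.9 CPM without. Their mean cKit antibody was 83 UMIs per cell against 59.3, and CD16/32 was 29 against 12. S phase lists did not differ by more than 0.04 on the log2 scale in any of the 3 splits.

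**Figure D4:**
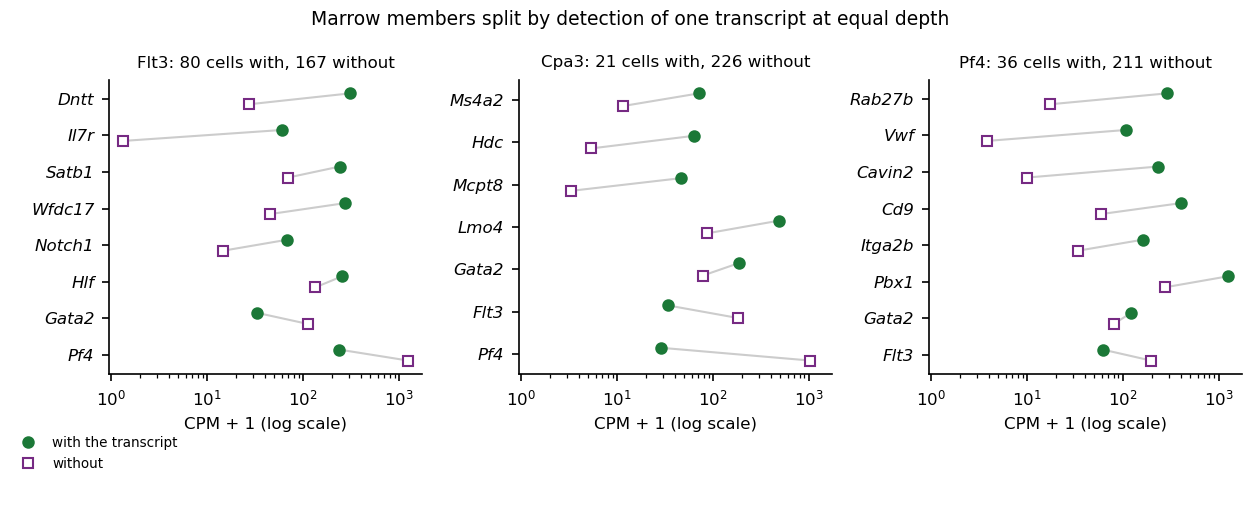
CPM plus 1 (horizontal axis, log scale) of selected lineage genes in marrow members with a transcript (filled circles) and without it (open squares), for Flt3, Cpa3 and Pf4 detected at 3000 UMIs per cell. Dntt is at 309 CPM with Flt3 and 26.1 CPM without, and Vwf is at 107 CPM with Pf4 and 2.85 CPM without; cells of all hashtags were pooled, so no error is drawn.

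The cells just inside and just outside the granule threshold were set side by side. The 29 marrow members with 0.25% to 0.5% of UMIs from Mpo, Elane, Prtn3 and Ctsg had 153 CPM of Meis1, 252 CPM of Cd34, 86.3 CPM of Flt3 and 70.4 CPM of Gata2. The 39 cells with 0.5% to 1%, which otherwise met the rule, had 132, 231, 62.2 and 46.9 CPM of the same genes. Their cKit antibody was 65.0 and 70.2 UMIs per cell. Only 1 spleen member lay in the band inside the threshold.

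Spleen members were then tested against marrow members with edgeR's quasi-likelihood test on the 8 and 8 hashtag sums, with Benjamini-Hochberg adjustment over 8984 genes, and every adjusted p of a gene below comes from it. The marrow sums are the same as those set against granule-high cells above. In spleen members 2067 genes (23.0%) rose and 3199 (35.6%) fell, and the median log2 change of all genes was -0.18. With TMM factors that median was -0.01 and the counts were 2531 and 2355, so 51.8% of the changed genes rose in place of 39.3%. With cells thinned to 3000 UMIs 917 rose and 856 fell. With so large a background, the counts of single lists are read beside 23.0% and 35.6%.

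All measured genes of both antigen presentation lists rose. The MHC class II list gave 10 of 10 genes up (median 5.01) and the conventional dendritic cell list 13 of 13 (median 4.65). H2-Ab1, a class II chain, ran from 3593 to 5936 CPM (median 5446) in spleen members and from 39.5 to 599 CPM (median 76.8) in marrow members (log2 change 5.01 ± 0.41, SE). Xcr1, a chemokine receptor of cross-presenting dendritic cells, had 102 to 196 CPM (median 147) in spleen members and was at 0 in 7 of 8 marrow sums, with 10.3 CPM in the other (7.35 ± 0.37, adjusted p = 1.07e-12). Ciita, the master activator of class II genes, rose by 5.55 ± 0.32 and Zbtb46, a factor of classical dendritic cells, by 4.46 ± 0.32. The chemokine gene Cxcl9 and the adhesion receptor gene Adgrl3 had no UMI in the marrow sums. Against 3 counts over that group they were at least 244-fold and at least 542-fold higher in spleen members.

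The dendritic list summed to 23401 to 40746 CPM in spleen members (median 37757), to 651 to 6111 CPM in marrow members (median 1407) and to 975 to 1196 CPM in granule-high cells. Monocyte and macrophage genes gave 7 up and 2 down of 13, among them Ctss, cathepsin S (3.84 ± 0.25). T cell, NK cell and innate lymphoid genes gave 4 up and 2 down of 8, with Klrd1 (CD94) at 4.23 ± 0.35, while their list summed to 170 to 1737 CPM in spleen members and 160 to 266 CPM in marrow members. What these lists have to do with the other differences between the tissues was not tested, but the tests without MHC class II-high cells stand below.

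Progenitor genes fell together. Of 22 multipotent progenitor genes 21 fell and none rose (median -3.07), of 13 stem cell genes 10 fell and 1 rose (median -2.79), and of 8 early erythroid genes 7 fell. Cd34 had 3.50 to 56.6 CPM (median 10.2) in spleen members and 127 to 278 CPM in marrow members (-4.07 ± 0.34, adjusted p = 8.16e-10). Meis1 had 30.6 to 136 CPM (median 50.7) in spleen members and 264 to 529 CPM in marrow members (-2.79 ± 0.22, adjusted p = 2.59e-10). Gata2 reached 49.2 CPM at most in spleen members (median 3.69), against 59.3 CPM at least in marrow members (-3.86 ± 0.49). Hlf, Mecom and Lmo2, a bridging factor of early blood cells, fell by 4.04 ± 0.40, 4.08 ± 0.43 and 2.56 ± 0.14.

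Genes of the lineage lists differed as well, but most spleen members were high in MHC class II RNA, so these values are not read as priming of progenitors. Of 13 megakaryocyte genes 10 fell and 2 rose, and Pf4 was at 0 in 5 spleen sums and reached 91.6 CPM in 1 (-6.29 ± 0.93, adjusted p = 4.43e-06). The lymphoid-primed list split, with 8 up and 6 down of 16. Flt3 had 141 to 377 CPM in spleen members (median 277) and 110 to 312 CPM in marrow members (median 185). It rose by 0.56 ± 0.18 with overlapping groups (adjusted p = 0.0129), and at 3000 UMIs per cell it did not pass (adjusted p = 0.0971). Flt3 is also on the dendritic list, so its value does not separate lymphoid priming from dendritic RNA. Ccr9, a gut and thymus homing receptor, rose by 5.17 ± 0.47, whereas Dntt, Il12a and Mef2c fell by 5.53 ± 0.66, 5.58 ± 0.39 and 1.44 ± 0.11.

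Kit itself, on which the rule rests, had 147 to 183 CPM in spleen members (median 164) and 185 to 247 CPM in marrow members (median 202). Since every member had to hold a Kit UMI, this is a description without a test. Cpa3 differed by -2.71 ± 0.69 (adjusted p = 0.0018), with overlapping groups, and missed the threshold in DESeq2 (0.0525).

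Division and growth genes were lower in spleen members. Of 22 S phase genes 20 fell, of 23 G2 and M phase genes 20 fell, and of 20 MYC target and ribosome biogenesis genes all 20 fell, with none rising. Scaling by TMM factors left 17 of the G2 and M phase genes and 16 of the MYC and ribosome genes down and none up. Mcm5 and Mcm7, parts of the replicative helicase, fell by 1.31 ± 0.14 and 1.38 ± 0.13, Top2a, a mitotic topoisomerase, by 0.78 ± 0.16, and Myc by 2.25 ± 0.19. Npm1, nucleophosmin, fell by 1.00 ± 0.07.

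Adhesion and signalling genes moved both ways. Of 12 homing and retention genes 7 rose and 4 fell: Itgb2, the beta chain of LFA-1 and Mac-1, rose by 2.83 ± 0.21, Itga4 (CD49d) by 1.45 ± 0.15 and Selplg by 1.31 ± 0.16, while Itga6 fell by 2.63 ± 0.20. Of 16 inflammatory progenitor genes 10 rose and 3 fell, with Ifngr1, the interferon gamma receptor, at 2.14 ± 0.12 and Il6st, the shared receptor chain gp130, at 2.25 ± 0.19. Dissociation stress genes, which respond to tissue handling, gave 7 up and 3 down of 10, with Nr4a1 at 4.65 ± 0.42 and Junb at 2.37 ± 0.21. Spleen and marrow were taken apart in different ways, and the part of handling in these values was not tested. Glycolysis and hypoxia genes gave 2 up and 12 down of 17, such as Tpi1 (-1.48 ± 0.13).

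**Figure D5:**
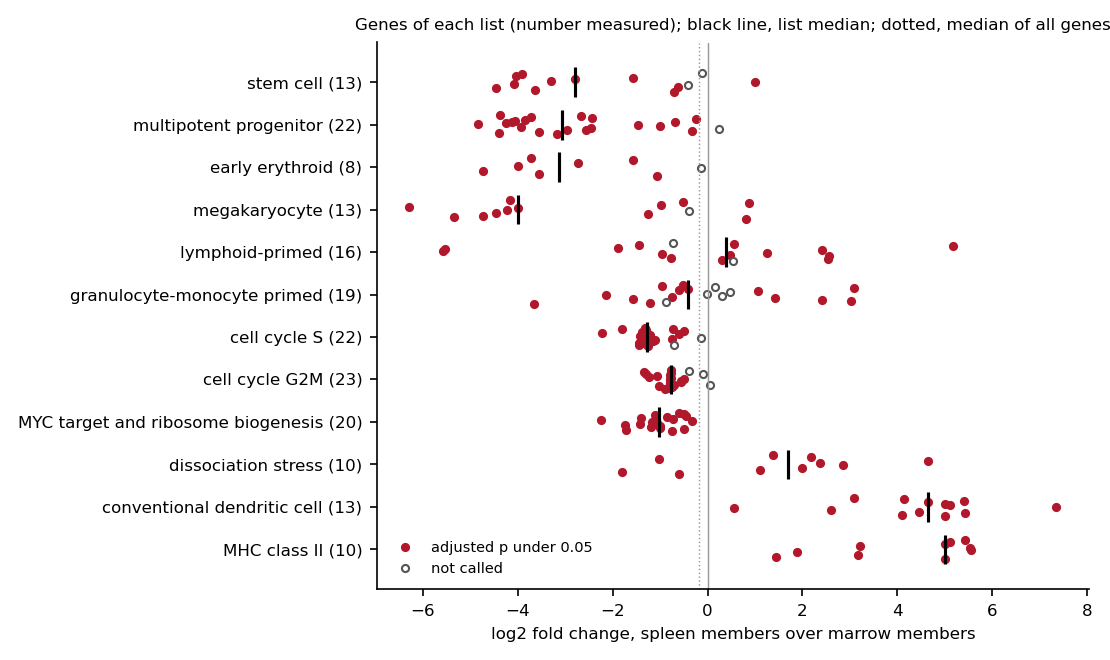
Log2 fold change of spleen members over marrow members (horizontal axis) for the measured genes of 12 lists, with filled points at an adjusted p under 0.05, a black line at the list median and a dotted line at the median of all genes. The MHC class II and dendritic lists lie wholly to the right with medians of 5.01 and 4.65, and the stem cell and multipotent lists have medians of -2.79 and -3.07.

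MHC class II and 3 integrins rose at the surface of spleen members, and cKit fell. The antibodies were compared as shares of all antibody UMIs with an exact permutation test over the 12870 splits of 8 against 8 sums, two-sided, adjusted over 18 antibodies. MHCII made up 23.3% to 35.4% of antibody UMIs in spleen members (median 31.9%) and 2.39% to 3.79% in marrow members (median 2.86%), a log2 difference of 3.39 ± 0.11 (SE, exact adjusted p = 0.00028, the smallest possible here). CD11b, CD11a, CD49d and CXCR2 also rose, by 2.59 ± 0.23, 1.78 ± 0.18, 1.19 ± 0.11 and 0.78 ± 0.17. cKit fell, with 1.09% to 1.80% in spleen members (median 1.31%) and 4.27% to 6.68% in marrow members (median 5.98%; -2.0 ± 0.12). CD106, CXCR4, CD64, CD62L, CD16/32, CD24 and CD44 fell by 2.0, 1.70, 1.67, 1.37, 1.30, 0.65 and 0.52. By mean UMIs per cell CD24 (-0.25, exact adjusted p = 0.329) and CD44 (-0.12, 0.321) did not pass, and CD44 also missed with medians of cells (0.118). CD115, Ly6C, CD69, CD14 and CCR2 did not pass, with adjusted p between 0.0569 and 0.779. Ly6C passed with the replicate block (-0.52, exact adjusted p = 0.0301), with medians of cells (-0.28, 0.00513) and without spleen sum 5 or marrow sum 1 or 4 (0.00719, 0.0378 and 0.0474), and CD115 passed by mean UMIs per cell (0.91, 0.0154). The share of MHCII itself enters the denominator of every other antibody.

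From cell to cell, Kit RNA and cKit antibody were weakly linked among marrow members and more closely among granule-high cells. Among spleen members no positive link was seen. Kit RNA was scaled to each cell's total UMIs, the antibody count was not, and both were taken on a log2 scale. Pearson's r was -0.11 over 523 spleen members, 0.14 over 255 marrow members and 0.61 over 381 granule-high cells. Spearman's coefficients were -0.10, 0.25 and 0.74 in the same order. The median cKit antibody count was 15 in spleen members, 54 in marrow members and 24 in granule-high cells. Cells of 1 tissue share a library and differ in depth, and members had to hold Kit RNA, so these values only describe the cells.

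Spleen members with and without MHC class II RNA held different transcripts. Among the 485 with 0.2% or more, Flt3 was found in 90.7%, Itgax (CD11c) in 78.4%, Zbtb46 in 76.1%, the dead-cell receptor gene Clec9a in 55.5% and Xcr1 in 44.7%, all without thinning. None held Gata2 or Cpa3, and Cd34 was found in 6.19%. At 3000 UMIs per cell Gata2 was found in 0 of 480, which allows a share of up to 0.625%. In spleen cells with at least 5% S100a8 and S100a9, Clec9a was found in 1.83%, Xcr1 in 0.229% and Flt3 in 1.47%, also without thinning. Those cells had a median of 3073 UMIs, against 14996 in the spleen members with 0.2% or more, so these shares are not at equal depth.

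The 38 spleen members under 0.2% carried progenitor genes more often. Sox4 was found in 63.2% of them, Meis1 in 52.6%, Cd34 in 36.8%, Gata2 in 26.3%, Hlf in 23.7% and Cpa3 in 18.4%. They were mixed, since Il7r and the T cell receptor gene Trbc2 were each found in 23.7%, and 6 cells held 306 UMIs of Ccl5, a chemokine of cytotoxic lymphocytes. The 10 marrow members with 0.2% or more had none of Cd34, Meis1, Gata2, Cpa3, Pf4, Dntt or Hlf. All 10 held Irf8, a factor of dendritic cells and monocytes, and Cst3, 7 held Flt3 and 5 held Clec9a.

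With only members under 0.2% MHC class II RNA, a choice made after seeing the data, 4 spleen sums with at least 5 cells stood against 8 marrow sums. Of 5920 genes 355 rose and 277 fell. Meis1, Cd34 and Sox4 then differed by -0.25, -0.50 and -0.04 with adjusted p of 0.53, 0.27 and 0.949 in edgeR, and Gata2 by -1.61 (0.0553). Of 11 stem cell genes 1 rose and 2 fell, of 21 multipotent genes 5 fell, of 21 S phase genes 9 fell and of 23 G2 and M phase genes none changed. Hlf, which fell over all members, had a difference of 0.25 here (adjusted p = 0.686). Such few cells do not show that the progenitors of the tissues are alike.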

How the data were processed

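The deposited table holds UMI counts of 32285 genes, 10 hashtags (8 of them assigned to cells) and 18 surface antibodies; per the file headers, Cell Ranger 7.0.1 was the authors' counting tool, and the submitters' processing notes name mm10. No normalization by the authors was found in the counts. Tissues were read from the number at the end of each barcode, matched to the library numbers of the labels, a tie that no source states outright. All deposited cells were kept. Cells got a hashtag with 20 or more of its UMIs and 3 times as many as of any other. Cells with no or several hashtags, the second including doublets of different mice, were left out of the sums (479 spleen members, 238 marrow members and 338 granule-high cells had 1), and doublets within a hashtag stay in. Each hashtag was taken as 1 mouse, an assumption, so the p-values cover the spread of hashtags in 1 library, which may be technical.

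Counts were summed per hashtag and group with at least 10 cells. Spleen and marrow members were compared with edgeR 4.0.16 (quasi-likelihood, total UMIs as library sizes, genes with at least 100 UMIs, adjusted p under 0.05; limma 3.58.1, R 4.3.3), with DESeq2 1.42.0 as an alternative. Log2 ratios to granule-high cells had 1 CPM added, and antibody values 0.01 UMIs per cell or 0.001 percent. Exact tests ran in Python 3.11.15 with numpy 2.4.6, pandas 2.3.3 and scipy 1.17.1. The edgeR test and the paired sign-flip test were checked on simulated data, while the exact test over splits and DESeq2 were not.

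The members, the gene lists and the tests were chosen with earlier results of these data known. Named genes came from a rule: the 10 largest increases and decreases among called genes of at least 20 CPM, or the 12 largest ratios each way against granule-high cells, without ribosomal, mitochondrial, hemoglobin, immunoglobulin, T cell receptor and unnamed genes. To these came up to 4 members per list and the genes of the membership rule, the markers and Flt3, Cpa3 and Pf4. It gave 125 and 118 genes, and those printed were picked from them after their values were seen. Ccl5, Clec9a, Il7r and Notch1 fall outside it and were chosen after their values were seen. Alternatives changed the scaling, the filters, the thresholds, the thinning and the replicates.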

Additional observations from a re-analysis of the deposited data

Results flagged for a closer look

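Each group of 8 hashtag sums was searched for a highest or lowest value that stood apart from the other 7 by more than Dixon's 95% limit for the gap over the range. This held for 27 of 119 groups (22.7%), 25 of them at the high end. The limit gives about 1 in 20 by chance only for independent values with a normal spread. The values searched were CPM, antibody levels and shares without a log scale, whose spread need not be normal. The number of such groups therefore does not show that any mouse was unusual.

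Among spleen members, hashtag 7 stood highest for Gata2 at 49.2 CPM, Cpa3 at 76.0 CPM and Pf4 at 91.6 CPM. Hashtag 5, the smallest spleen sum with 13 cells, stood highest for Hlf at 62.2 CPM and Mecom at 119 CPM, lowest for H2-Ab1 at 3593 CPM, and lowest for the share of members with 0.2% or more MHC class II RNA at 69.2%. Its Ly6C antibody share of 3.15% was also the highest. Hashtag 4 stood highest for Dntt at 17.5 CPM and for the CD115 antibody at 0.777%.

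Among marrow members, hashtag 7 stood highest for Xcr1 at 10.3 CPM, H2-Ab1 at 599 CPM, H2-Aa at 551 CPM, the CCR2 antibody at 1.57 UMIs per cell or 0.139%, and the CXCR2 antibody at 2.10 UMIs per cell. Hashtag 4 stood highest for Meis1 at 529 CPM and hashtag 2 for Cpa3 at 236 CPM. Hashtag 5 was highest for Ly6c2 at 240 CPM and for the Ly6C antibody at 49.5 UMIs per cell. Hashtag 8 was highest for CD11b at 10.9 UMIs per cell.

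Among granule-high cells, hashtag 7 stood highest for Prg2, the eosinophil major basic protein gene, at 1417 CPM, with 92.9 CPM in the next sum, and for the MHCII antibody at 82.3 UMIs per cell. Hashtag 5 was highest for the CXCR4 antibody at 6.63 UMIs per cell, for Dntt at 1.17 CPM and for H2-Aa at 2.92 CPM, and hashtag 2 for Gata2 at 23.8 CPM.

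The gene thresholds of the members were also met in tissues outside the rule, by 42 of 7763 blood cells (0.541%) and 12 of 462 tumor cells (2.6%). These cells were not analysed further.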

How the results depend on the processing

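Tissue and library cannot be told apart, hashtags stand in for mice, and 13 to 163 cells per sum limit the depth of rare transcripts, so low genes rest on few UMIs. In the spleen and marrow comparison, members under 0.2% MHC class II RNA gave 355 genes higher and 277 lower, with Hlf at 0.25 and Irf8 at -0.72 turning round without passing and the Ly6C antibody turning round to 1.31 and passing (exact adjusted p = 0.0182), CD115 gained (1.37, 0.0242) and CD16/32 (-0.12, 0.756) and CD24 (-0.37, 0.453) lost; thinning gave 917 and 856. Leaving out 1 sum gave 1799 to 2076 higher and 2777 to 3246 lower, and 5 to 5 antibodies higher and 8 to 9 lower. CD14 turned to -0.12 with medians of cells; without 1 sum, CD14 ranged from -0.0020 to 0.30, CCR2 from -0.10 to 0.41 (-0.020 in another) and CD69 down to -0.0034, none of these reversals passing the threshold. Whether hashtag numbers pair the tissues could not be decided, since spleen and marrow members were mostly unlike cells and low correlations can arise either way. Deviations of same-numbered sums correlated at -0.07 to 0.18 (median 0.04), over 0.1 in 2 of 8, and 2 of 8 matched their own number best. These values lay above the mean for other numbers in every hashtag except 7 (-0.07 against 0.02). With the replicate block 2018 genes were higher and 3096 lower.

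Against granule-high cells, thinning gave 75 genes higher and 141 lower among 2777 measured. The granule-high cells with Kit gave 305 higher and 226 lower among 8201 genes. Leaving out 1 hashtag gave 380 to 463 higher and 346 to 394 lower. Of the antibodies, 7 were higher and 4 lower as shares and also in edgeR with the replicate block, none (0) was higher against granule-high cells with Kit, and 3 to 4 were higher and 6 to 9 lower without 1 hashtag. The exact test without pairs (no replicate block) called 4 higher and 9 lower. Signs turned for CD11a (0.032 as share, 0.031 with the block), CD44 (0.076, 0.076), CD49d (0.17, 0.17), CCR2 (0.69, 0.81) and CXCR2 (0.51, 0.53), for CD106 by medians (1.14), for CCR2 against cells with Kit (0.40) and without hashtag 1 or 4 (0.24, 0.22, with -0.53 as the lowest), and for CD14 without hashtag 2 or 7 (-0.14, -0.045, with 0.094 as the highest).

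Shares of cells followed depth. At 1500 UMIs and unthinned, spleen members had Meis1 in 6.53% and 28.3%, Flt3 in 35.3% and 86.4%, and Gata2 in 0.192% at 1500. Marrow members had Meis1 in 41.3% and 86.7%, Gata2 in 14.6% and 52.2%, Flt3 in 19.7% and 55.7%, and unthinned Cpa3 in 20% and Pf4 in 24.7%. At 1500 UMIs, unthinned and with at least 3 genes at 3000, the stem cell list was met in 81.5%, 95.7% and 82.2%, the lymphoid-primed list in 63.4%, 98.4% and 63.2%, the megakaryocyte list in 43.3%, 96.9% and 38.9%, and the erythroid list in 31.1%, 86.3% and 29.6%. Leaving out every member with 2 genes of another cell type left too few cells for a value. The cause of the other changes was not tested.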
